A study of Danio rerio with 12 samples.

Results

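The zebrafish gonadotropin receptor genes fshr (ENSDARG00000071494, written FSHR in the symbol table) and lhcgr (ENSDARG00000026081) are described here in adult testis. They were found by symbol, ignoring case, and are 2 of the 33737 gene IDs counted in each library. Each symbol belongs to 1 ID, and both genes passed the filter on low counts. The libraries come from testis tissue of adult wild type zebrafish that was incubated for 48 h. In the Fsh group, 6 libraries had Fsh together with trilostane, and in the control group 6 libraries had trilostane alone. Trilostane, which both groups received, blocks the enzyme hydroxysteroid dehydrogenase and so the synthesis of steroid hormones. The series describes the 6 libraries of each group as biological replicates. The labels state neither the dose nor the source of the Fsh.

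Both receptors belong to the glycoprotein hormone receptors, which bind their hormone with a large extracellular domain of leucine-rich repeats and couple to G proteins through their membrane part. They signal mainly through the stimulatory G protein, adenylyl cyclase, cyclic AMP and protein kinase A. This signalling is ended by receptor kinases, arrestins and phosphodiesterases. In mammalian testis FSHR is found on Sertoli cells, which nurse the germ cells, and LHCGR on Leydig cells, which make androgens. In zebrafish, fshr has also been found on Leydig cells.

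Library totals ran from 6735718 to 11367899 counts with Fsh and from 4695095 to 11497588 counts in controls. Genes of the cell types that carry the receptors were counted in all libraries. The summed level of 28 Sertoli cell genes was 1212 to 1528 CPM with Fsh and 918 to 1151 CPM in controls, and that of 16 Leydig cell genes was 455 to 863 CPM with Fsh and 187 to 469 CPM in controls. CPM here are counts relative to a library size scaled by the TMM method of edgeR, which evens out differences in library composition. In whole tissue, fewer cells of a type and less RNA per cell cannot be told apart.

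The level of fshr with Fsh was 15.6 CPM in the lowest, 20.5 CPM at the median and 24.7 CPM in the highest library, against 17.3, 22.5 and 24.8 CPM in controls. The groups overlapped over nearly their whole range, where 1.93% of all tested genes had groups that did not overlap, and 3 of 6 Fsh libraries lay below the control mean. The means were 20.4 ± 3.75 CPM with Fsh and 22.0 ± 2.51 CPM in controls (SD, n = 6 each). The log2 fold change of −0.11 ± 0.14 (SE) did not pass (edgeR quasi-likelihood test with Benjamini-Hochberg adjustment over 19317 genes, adjusted p = 0.726). Of all genes tested, 1.63% passed at an adjusted p under 0.05. The 95% interval of the fshr change, −0.40 to 0.18 on the log2 scale, runs from a 1.32-fold decrease to a 1.14-fold increase.

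The level of lhcgr with Fsh was 3.36 CPM in the lowest, 5.36 CPM at the median and 8.74 CPM in the highest library, against 5.03, 6.42 and 10.5 CPM in controls. Fsh libraries 1 and 4 lay below every control, control libraries 1 and 4 lay above every Fsh library, and the other 8 libraries were interleaved. The means were 5.66 ± 1.95 CPM with Fsh and 7.28 ± 2.43 CPM in controls (SD, n = 6 each). Below the control mean stood 5 of 6 Fsh libraries, but also control libraries 2, 3, 5 and 6, at 5.25, 5.76, 7.08 and 5.03 CPM. The log2 fold change of −0.36 ± 0.26 (SE) did not pass (edgeR, adjusted p = 0.521). Its 95% interval, −0.92 to 0.21, is wider than that of fshr and holds a decrease of up to 1.89-fold.

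**Figure D1:**
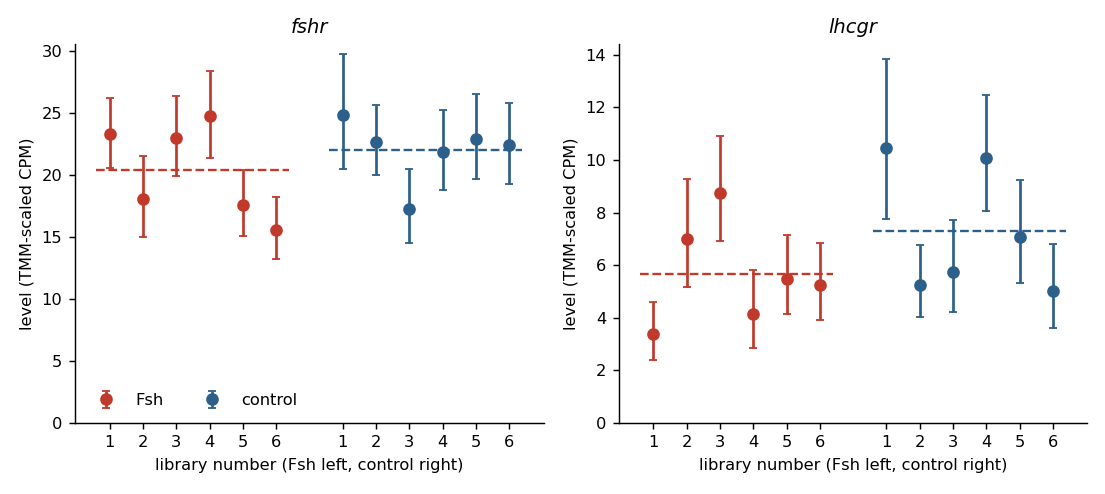
Level of fshr (left) and lhcgr (right) in each library (TMM-scaled CPM, y axis; library number, x axis; Fsh in red, control in blue). Bars are exact 95% Poisson intervals of the counts, which cover counting error only, and dashed lines are group means. The fshr levels of both groups lie between 15.6 and 24.8 CPM, and the lhcgr levels spread from 3.36 to 10.5 CPM.

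The lhcgr values rest on fewer reads. The counts of fshr were 124 to 270 with Fsh and 116 to 259 in controls, and those of lhcgr were 33 to 78 with Fsh and 42 to 86 in controls. Over all 12 libraries the level of fshr had a coefficient of variation of 14.9%, where counting alone gives 7.64%. For lhcgr it was 35.1%, where counting alone gives 14.1%. Among 4124 genes within 1.5-fold of the mean level of fshr, 28.8% had a lower coefficient of variation than fshr, and their median was 19.1%. Among 3241 genes near the level of lhcgr, 68.6% had a lower one than lhcgr, and their median was 27.5%.

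The ratio of the receptors was taken within each library, where library size has no part. Reads of lhcgr made up 12.6% of the reads of both receptors in the lowest Fsh library, 24.5% at the median and 27.9% in the highest. In controls the shares were 18.3% in the lowest, 24.3% at the median and 31.6% in the highest library. Each library had more fshr than lhcgr reads, from 2.16 times as many in control library 4 to 6.92 times as many in Fsh library 1. Transcript lengths were not used here, so this does not rank the genes by molecules.

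The shares averaged 21.9 ± 6.71% with Fsh and 24.5 ± 5.46% in controls (SD, n = 6 each). The log2 ratio of lhcgr to fshr reads was −1.90 ± 0.62 with Fsh and −1.65 ± 0.43 in controls (SD). The difference of −0.25 ± 0.31 (SE) was smaller than the spread between replicates (exact two-sided permutation test over 924 arrangements, p = 0.444), and 3 of 6 Fsh libraries were below the control mean.

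The Fsh libraries were uneven in this ratio. Library 1 held 12.6% lhcgr reads (exact 95% Clopper-Pearson interval 9.13 to 16.8%) and library 4 held 14.3% (10.1 to 19.6%), while the other 4 held 23.8 to 27.9%. The interval of library 1 lies below the intervals of these 4, the lowest of which begins at 18.5%. Libraries 1 and 4 had fshr at 23.3 and 24.7 CPM, the highest of the Fsh group, together with the lowest lhcgr of all 12 libraries, at 3.36 and 4.14 CPM. Library 3, however, had nearly as much fshr as library 1, at 23.0 CPM, and the highest lhcgr of the Fsh group, at 8.74 CPM.

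**Figure D2:**
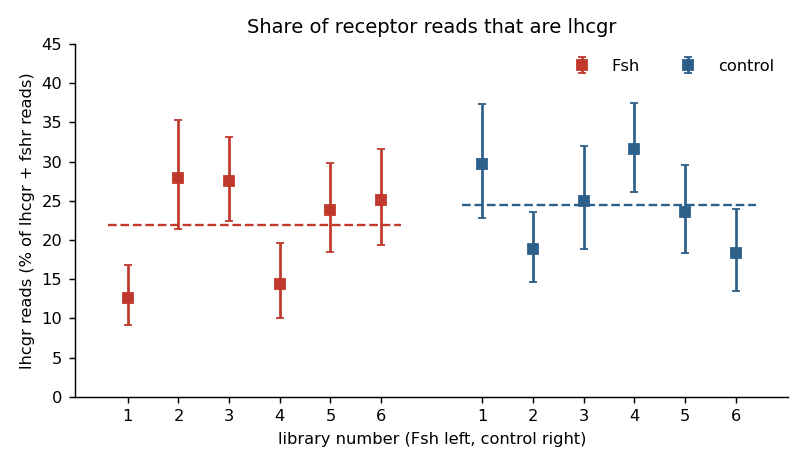
Reads of lhcgr as a percentage of lhcgr and fshr reads together (y axis) in each library (x axis; Fsh in red, control in blue), with exact 95% Clopper-Pearson intervals that cover counting error only, and dashed group means. Fsh libraries 1 and 4, at 12.6% and 14.3%, are the lowest of the 12.

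Unlike the receptors, several genes of the cells that carry them passed the test with Fsh. Among the Sertoli genes 5 of 25 rose with Fsh, among the Leydig genes 2 of 15 rose, and no gene of either list fell (edgeR, adjusted p under 0.05). Over all tested genes, 0.865% rose and 0.766% fell. The median log2 fold change was 0.30 for the Sertoli and 0.56 for the Leydig genes, beside 0.00 for all genes tested. Both lists were chosen with results of these data known, so these counts and medians are not independent evidence. The counts depend on single libraries. Without control library 5, 1 Sertoli and 1 Leydig gene rose, and without control library 6, 6 and 6 did. These were the lowest and highest counts when any 1 library was left out. Calls over the whole table moved as well, from 315 to 112 without control library 5 and to 700 without control library 6.

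To set each gene against a receptor, the ratio of receptor to gene was taken in each library on the log2(CPM + 0.5) scale, which understates changes of low genes. The ratios of the groups were compared in an exact two-sided permutation test whose smallest possible p is 0.00216, for 81 pairs including fshr with lhcgr. After Benjamini-Hochberg adjustment over these pairs, 29 ratios were lower with Fsh and none higher. The lists were chosen with results of these data known, so this count is not independent evidence. When each receptor was set against all 19316 other genes tested, no ratio passed. The smallest adjusted p was 0.181 for fshr and 0.281 for lhcgr (exact permutation test). Because the exact p cannot fall below 0.00216, a ratio could pass here only if many genes shared that lowest p. The adjustment over all genes therefore cannot decide whether single ratios changed. Without Fsh library 5, and likewise without Fsh library 6, the count of 29 became 18.

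The ratio of fshr to 9 of 25 Sertoli cell genes was lower with Fsh at an unadjusted exact p under 0.05, and none was higher. Over all 19316 genes, 10.2% had such a lower and 2.89% such a higher ratio, and the median difference of the log2 ratio was −0.13. Within the list, the largest difference was against gsdf, the gonadal soma derived factor of the TGF-beta family. With Fsh, gsdf had 40.5 CPM in the lowest, 131 CPM at the median and 186 CPM in the highest library, against 3.58, 12.0 and 41.1 CPM in controls. Only the lowest Fsh and the highest control library crossed. The log2 ratio of fshr to gsdf differed by −3.20 ± 0.69 (SE, Fsh minus control, exact permutation p = 0.00433, adjusted over all genes 0.211). On its own, gsdf passed (log2 fold change 2.72 ± 0.60, edgeR adjusted p = 0.0418).

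The ratio of fshr to 3 other secreted factors named by the rule was lower as well. The level of inha, the inhibin alpha subunit, was 29.3 ± 13.4 CPM with Fsh and 4.62 ± 4.23 CPM in controls. It passed on its own (log2 fold change 2.64 ± 0.54, edgeR adjusted p = 0.0318), and the ratio of fshr to it differed by −2.90 ± 0.61. The level of igf3, a gonadal insulin-like growth factor, was 8.01 ± 2.80 CPM with Fsh and 1.74 ± 0.87 CPM in controls, with no overlap. It passed as well (log2 fold change 2.14 ± 0.34, edgeR adjusted p = 0.00819), and the ratio of fshr to it was lower at the smallest exact permutation p, 0.00216. Anti-Müllerian hormone, amh, had 115 ± 40.3 CPM with Fsh and 32.1 ± 19.4 CPM in controls. The ratio of fshr to it differed by −2.25 ± 0.66 (exact permutation p = 0.00649, adjusted over all genes 0.223). On its own, amh did not pass (log2 fold change 1.85 ± 0.49, edgeR unadjusted p = 0.00201, adjusted p = 0.0728).

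Smaller differences were seen against other genes of the list. The ratio of fshr to DMRT1, a transcription factor of male sex determination, differed by −0.49 ± 0.13, and that to SOX9 (ENSDARG00000003293), a factor of Sertoli cell fate, by −0.57 ± 0.16. Named after their values were seen, CLU, GJA1 and INHBA (ENSDARG00000024759) gave differences of −1.08 ± 0.28, −1.03 ± 0.24 and −1.22 ± 0.32. They encode clusterin, a gap junction protein and an activin subunit. The other copies did not pass, at 0.07 ± 0.25 for SOX9 (ENSDARG00000043923) and 0.29 ± 0.60 for INHBA (ENSDARG00000012671). Secreted factors INHBB, CXCL12, cxcl12b and kitlga, named after their values were seen, did not pass either, at −0.36 ± 0.28, −0.37 ± 0.36, 0.28 ± 0.49 and 0.03 ± 0.20. The ratio of fshr to NR0B1, an orphan nuclear receptor, went furthest the other way, at 0.64 ± 0.30 (exact permutation p = 0.0541). Reads of INHBA, SOX9, CYP11A1 and other symbols with a pair of IDs could be split where the copies are alike in sequence, which was not tested. The tight junction gene TJP1, also named after its values were seen, did not differ from fshr beyond its spread (−0.04 ± 0.15). All 9 ratios kept an unadjusted exact p under 0.05 when any 1 library was left out, with 0.0173 the highest.

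The ratio of lhcgr to 9 of 15 Leydig cell genes was lower with Fsh at an unadjusted exact p under 0.05, and none was higher. Over all 19316 genes, 11.0% had such a lower and 0.362% such a higher ratio. The median difference of the log2 ratio over all genes was −0.35, as lhcgr itself was lower. Within the list, the largest difference was against HSD11B2, an enzyme in the synthesis of the fish androgen ketotestosterone. With Fsh, HSD11B2 had 123.9 ± 85.0 CPM, against 16.5 ± 17.8 CPM in controls, and the log2 ratio of lhcgr to it differed by −3.54 ± 0.72 (exact permutation p = 0.00216, adjusted over all genes 0.281). Every Fsh library exceeded every control, and HSD11B2 itself passed (log2 fold change 2.90 ± 0.62, edgeR adjusted p = 0.0358).

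Among the other Leydig genes, insl3 encodes an insulin-like peptide. With Fsh it had 93.6 CPM in the lowest, 202 CPM at the median and 285 CPM in the highest library, against 13.7, 40.5 and 78.5 CPM in controls, with no overlap. On its own, insl3 passed (log2 fold change 2.19 ± 0.37, edgeR adjusted p = 0.0118). The ratio of lhcgr to insl3 differed by −2.62 ± 0.55. That to STAR, which moves cholesterol into the mitochondrion, differed by −1.44 ± 0.41 (exact permutation p = 0.0152, adjusted over all genes 0.402). STAR itself did not pass (log2 fold change 0.97 ± 0.34, edgeR unadjusted p = 0.0134, adjusted p = 0.163). Named after its values were seen, cyp11c1, a steroid hydroxylase, gave a difference of −1.77 ± 0.39. The ratio to CYP17A1, which makes androgen precursors, differed by −1.08 ± 0.37 (exact permutation p = 0.0195). NR5A1, the steroidogenic factor of gonadal cells and named after its values were seen, did not differ from lhcgr beyond its spread (−0.09 ± 0.45). Of the 9 lower ratios, 6 kept an unadjusted exact p under 0.05 when any 1 library was left out. Those to hsd3b1, FDXR and fdx1, which act in steroid synthesis, lost it in 9, 8 and 1 of the 12 omissions, fdx1 without control library 1.

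Each receptor was also set against the list of the other cell type. The ratio of fshr to 10 of 15 Leydig genes and that of lhcgr to 10 of 25 Sertoli genes were lower at an unadjusted exact p under 0.05, beside the same shares of 10.2% for fshr and 11.0% for lhcgr over all genes. For HSD11B2, the ratio of fshr differed by −3.32 ± 0.72, and for gsdf that of lhcgr by −3.43 ± 0.74. The pair of fshr with lhcgr repeats the ratio of the receptors given earlier, with its sign turned and 0.5 CPM added. Its difference of 0.22 ± 0.29 for fshr over lhcgr did not pass (exact permutation p = 0.461).

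**Figure D3:**
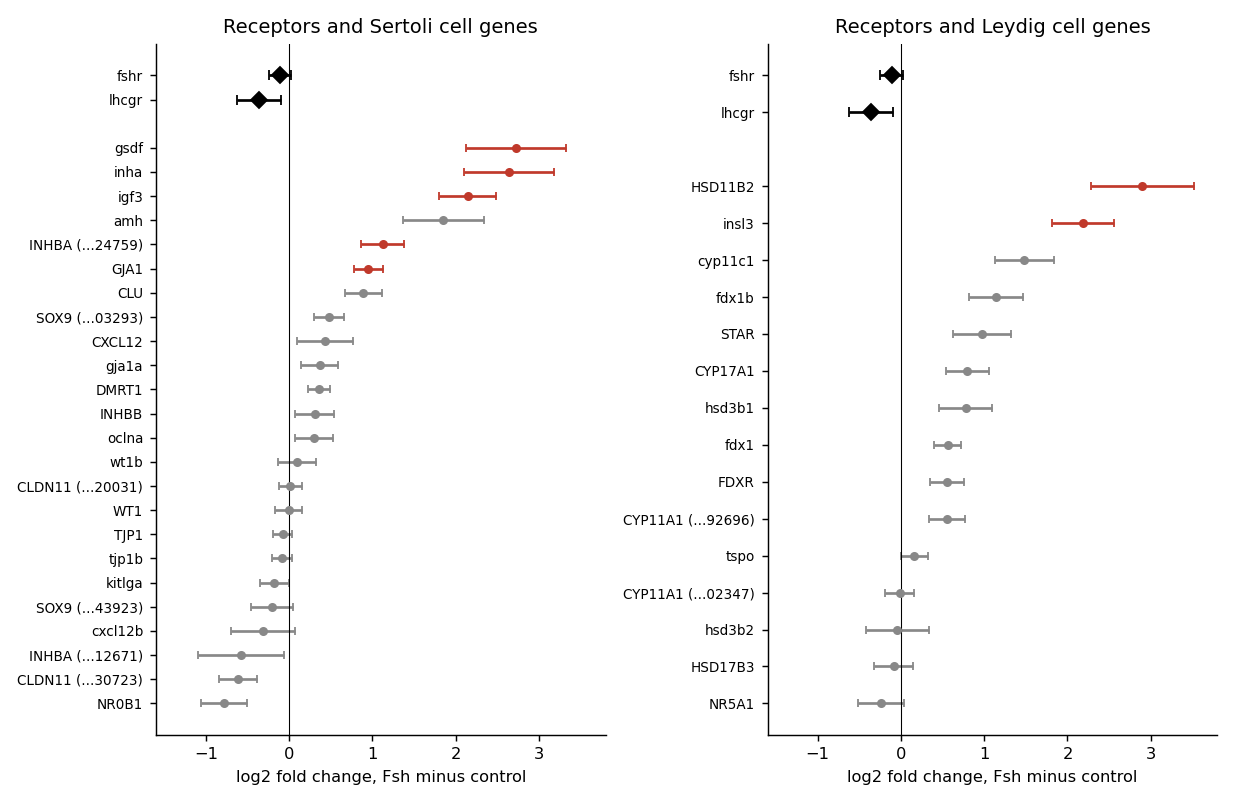
Log2 fold change, Fsh minus control (x axis), of fshr and lhcgr (black diamonds, top) and of 24 of the 25 Sertoli cell genes (left) and 15 Leydig cell genes (right), each with its SE from edgeR over 6 libraries per group. Red points passed at an adjusted p under 0.05 and grey points did not, and IDs in brackets are shortened. The receptors lie at −0.11 and −0.36, while gsdf and HSD11B2 lie at 2.72 and 2.90.

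The summed levels of other cell types' genes overlapped in range between the groups in each list, and of these only the red blood cell sum passed adjustment. The sum of 22 leukocyte genes was 539 to 1743 CPM with Fsh and 1313 to 2179 CPM in controls. Its log2 difference was −0.71, Fsh minus control (exact permutation p = 0.0411, adjusted over the cell type lists 0.0720). Of 19 leukocyte genes tested singly, 17 had a log2 fold change below 0 and 2 above, with a median of −0.43. Of them 1 passed as lower (edgeR), where 0.766% of all genes did. The sums of the remaining lists follow. That of 7 red blood cell genes was 78.3 to 113 CPM with Fsh and 53.2 to 87.2 CPM in controls. Its means were 92.9 and 64.5 CPM (exact permutation p = 0.00866, adjusted 0.0202), although the globin gene hbaa1 had only 43 reads in each group. Of 4 red blood cell genes tested singly, 2 were above 0 and 2 below, and none passed. The sum of 21 germ cell genes was 3703 to 5315 CPM with Fsh and 4229 to 5730 CPM in controls. For 13 fibroblast and peritubular genes it was 1196 to 1960 CPM with Fsh and 915 to 1724 CPM in controls. For 10 endothelial genes it was 228 to 574 CPM with Fsh and 305 to 496 CPM in controls. The germ cell, fibroblast and endothelial sums did not pass (exact permutation test, adjusted p = 0.710, 0.133 and 0.273). In these lists no ID was at 0 in all libraries. With the leukocyte level as a covariate the receptors still did not pass, while 2 Sertoli genes and 1 Leydig gene rose. That fit called 271 genes over the whole table, against 315 without the covariate. The receptor changes were then −0.16 for fshr and −0.52 for lhcgr (edgeR adjusted p = 0.621 and 0.356). With group means removed, lhcgr and the leukocyte sum had Pearson's r of −0.54 (exact permutation p = 0.0899, adjusted over 14 relations 0.905). Spearman's rho was −0.62 (exact permutation p = 0.0424, adjusted 0.485). The part of cell makeup in these results was not tested further.

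Across libraries, no correlation of a receptor with a Sertoli or Leydig cell gene passed adjustment. Group means were removed from the log2 levels, and Pearson's r over the 12 libraries was tested with all 518400 permutations within groups, for the same 81 pairs. None passed adjustment, and 2 had an unadjusted exact permutation p under 0.05. The median r of fshr was 0.01 with 25 Sertoli genes and 0.05 with 15 Leydig genes. For lhcgr it was −0.02 with each list. Even the pair with r of −0.76 did not pass, so weaker relations could not be told from none. Some pairs differed in sign between the groups of 6. For fshr with amh, r was −0.41 with Fsh and 0.99 in controls, where control library 3 was lowest in both genes.

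Nor did the correlation between the receptors pass. Between fshr and lhcgr, r was 0.0029 (exact permutation p = 0.993) and Spearman's rho was −0.06 (exact permutation p = 0.864). Within the Fsh group r was −0.24 and within controls 0.40. Without the 2 libraries farthest from the median fshr level it was −0.18.

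**Figure D4:**
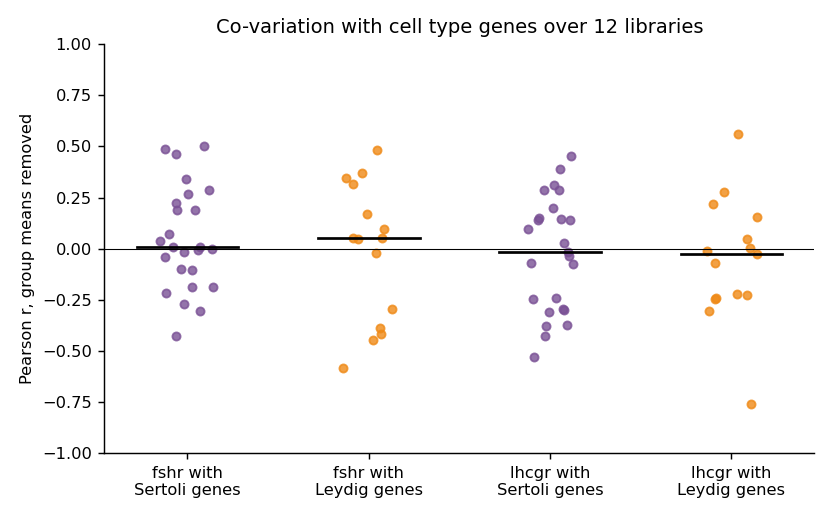
Pearson's r between each receptor and each Sertoli or Leydig cell gene over 12 libraries, from log2 levels with group means removed (y axis), where each point is a gene (purple Sertoli, orange Leydig) and black lines are medians. The medians lie between −0.02 and 0.05, and the lowest point is lhcgr with CYP11A1 at −0.76.

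The pair farthest from 0 was lhcgr with CYP11A1 (ENSDARG00000092696), a copy of the gene for the enzyme that cleaves the cholesterol side chain at the start of steroid synthesis. Its r was −0.76 (exact permutation p = 0.00924, adjusted p = 0.749) and its rho −0.77 (exact permutation p = 0.00868, adjusted p = 0.703). Within the Fsh group r was −0.61 and within controls −0.89. This copy had 29.3 ± 6.87 CPM with Fsh and 19.9 ± 6.53 CPM in controls (SD, log2 fold change 0.55 ± 0.21, edgeR adjusted p = 0.200). The levels given next hold this group difference, which was removed for r. Fsh libraries 1 and 4, lowest in lhcgr, had 40.2 and 33.2 CPM of CYP11A1, and control libraries 1 and 4, highest in lhcgr, had 13.7 and 13.3 CPM. Fsh library 3 went against this order, with the highest lhcgr of its group, at 8.74 CPM, and 30.5 CPM of CYP11A1. The other CYP11A1 copy (ENSDARG00000002347) showed no such relation to lhcgr, with r = 0.0037 over all libraries (exact permutation p = 0.991), −0.45 within the Fsh group and 0.46 within controls. Without the 2 libraries farthest from the median lhcgr level, r of the first copy was −0.57. Without Fsh library 3, r was −0.92 with an adjusted p of 0.0384 (exact permutation test), and no other pair passed when any 1 library was left out.

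Other pairs had a smaller r, and none passed adjustment. With lhcgr, HSD17B3, an enzyme that makes testosterone, had r = 0.56 (exact permutation p = 0.0706) and rho = 0.62 (exact permutation p = 0.0481), and r = 0.48 without the 2 farthest libraries. With fshr, hsd3b2, a hydroxysteroid dehydrogenase gene, had r = −0.58 (exact permutation p = 0.0324), rho = −0.57 (exact permutation p = 0.0437), and r = −0.34 without the 2 farthest libraries. Its level was 1.14 ± 0.35 CPM with Fsh and 1.16 ± 0.69 CPM in controls, where few reads are counted. DMRT1 had r = 0.50 with fshr (exact permutation p = 0.0548). The adjusted p of these 3 pairs was 0.976.

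**Figure D5:**
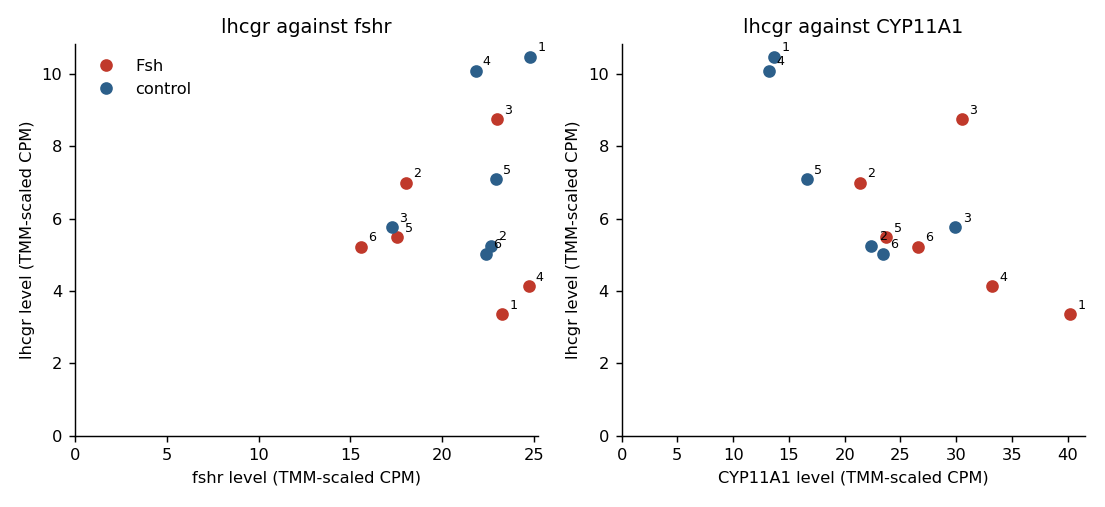
Level of lhcgr (y axis) against the level of fshr (left panel, x axis) and of CYP11A1 (right panel, x axis), all in TMM-scaled CPM, for 6 Fsh libraries (red) and 6 control libraries (blue), with library numbers beside the points. With group means removed from the log2 levels, r is 0.0029 with fshr and −0.76 with CYP11A1 (ENSDARG00000092696).

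The gonadotropin hormones are known as products of the pituitary, and few reads of their genes were counted in testis. The Fsh beta subunit gene fshb had 23 reads over the Fsh libraries and 29 over the controls, and the shared alpha subunit gene CGA had 5 over the Fsh libraries and 10 over the controls. A count of 0 allows up to 3 counts in a library, or 0.264 to 0.445 CPM with Fsh and 0.261 to 0.639 CPM in controls, for counting error only. Of 5 subunit genes, TSHB, the thyrotropin beta subunit, alone passed the filter, at 3.06 ± 0.70 CPM with Fsh and 3.28 ± 1.20 CPM in controls (log2 fold change −0.11 ± 0.26, edgeR adjusted p = 0.873).

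None of 9 genes in the list of related receptors passed in the fit without covariates, where 1.63% of all tested genes passed. The smallest p belonged to LGR4, a leucine-rich repeat receptor of R-spondins, at 71.7 ± 9.01 CPM with Fsh and 49.0 ± 10.9 CPM in controls (log2 fold change 0.55 ± 0.15, edgeR adjusted p = 0.0806). All 6 Fsh libraries exceeded the highest control at 59.4 CPM, and DESeq2 called the gene (adjusted p = 0.0260). The thyrotropin receptor gene TSHR, a close relative named after its values were seen, had 10.6 ± 4.10 CPM with Fsh and 11.2 ± 1.89 CPM in controls (−0.08 ± 0.25). The prolactin receptor gene PRLR, outside the rule for naming, passed with the leukocyte level as a covariate (higher with Fsh, edgeR adjusted p = 0.0134) and did not without it (log2 fold change 0.87 ± 0.68, edgeR adjusted p = 0.547).

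Signal transduction genes gave no call. Over all tested genes 1.63% passed, so lists of this size would hold few calls or none. Of 40 genes of the stimulatory G protein, adenylyl cyclases and protein kinase A, none passed, and the median log2 fold change was −0.01. RAPGEF4 (ENSDARG00000079872), an exchange factor that cyclic AMP activates directly, had the smallest p, at 5.28 ± 0.72 CPM with Fsh and 7.69 ± 1.47 CPM in controls (−0.55 ± 0.16, edgeR adjusted p = 0.0963, DESeq2 adjusted p = 0.0411). All 6 Fsh libraries were below the control mean. GNAS, the stimulatory G protein alpha subunit, named after its values were seen, had 37.7 ± 3.53 CPM with Fsh and 37.4 ± 3.50 CPM in controls. Of 21 genes of the Gq, Gi and phospholipase C branch, gna11a, a G protein alpha subunit, had the smallest p, at 11.1 ± 0.92 CPM with Fsh and 13.7 ± 1.29 CPM in controls (−0.31 ± 0.11, edgeR adjusted p = 0.168).

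Genes that end receptor signalling gave no call among 32 tested, beside 1.63% of all tested genes. Their median log2 fold change was 0.03. The smallest p was that of rgs16, a regulator of G protein signalling, at 72.9 ± 12.2 CPM with Fsh and 49.6 ± 16.5 CPM in controls (0.55 ± 0.20, edgeR adjusted p = 0.170). MVK, mevalonate kinase, binds the Lhcgr messenger in rat ovary and was named after its values were seen. It had 9.15 ± 2.45 CPM with Fsh and 7.91 ± 1.99 CPM in controls (0.20 ± 0.22, edgeR adjusted p = 0.691).

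Factors known to act on the receptor genes in mammals gave no call among 21 tested, beside 1.63% of all tested genes. NR2F2, an orphan nuclear receptor of the COUP-TF family, had the smallest p, at 52.2 ± 6.22 CPM with Fsh and 66.9 ± 9.05 CPM in controls (−0.35 ± 0.11, edgeR adjusted p = 0.124). It was below the control mean in 6 of 6 Fsh libraries. The E-box factors USF1 and USF2, which act on the rodent Fshr promoter and were named after their values were seen, had log2 fold changes of 0.11 ± 0.14 and −0.04 ± 0.08.

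Over these lists 124 distinct genes were tested, of which edgeR called 0, limma-voom 0 and DESeq2 the 2 named. Over the whole table edgeR called 315 genes, or 1.63% of those tested, limma-voom 361 and DESeq2 1087. An unadjusted edgeR p under 0.05 was reached by 21 of them, or 16.9%, and by 17.4% of all genes tested. The share of the pooled lists is thus near the background, and differences between the lists were not tested. Such a p was reached by 4 of 9 related receptor genes and 5 of 40 of the stimulatory branch. In the Gq, Gi and phospholipase C branch it was 2 of 21, among genes that end signalling 5 of 32. Among regulators of the receptor genes it was 5 of 21. Genes outside the rule for naming passed when a library was left out. These were RXFP1, a relaxin receptor, without Fsh library 4 (edgeR adjusted p = 0.0443), GNB5 and CEBPB without Fsh library 5 (0.0406 and 0.0327), and ADCY1 (ENSDARG00000088634), an adenylyl cyclase, without control library 6 (0.0465). NR2F2 also passed without control library 6 (edgeR adjusted p = 0.0490). Over the whole table, edgeR called 184 genes without Fsh library 4, 758 without Fsh library 5 and 700 without control library 6.

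Among 11215 genes with a symbol and a mean of at least 5 CPM, those whose log2 levels were most like fshr over all 12 libraries were zbtb47a, atp5mea, GTF2F1, slc25a14 and LRRC47, with Pearson's r of 0.83, 0.82, 0.79, 0.79 and 0.79. The first is a zinc finger gene, GTF2F1 a subunit of a general transcription factor and slc25a14 a mitochondrial carrier. For lhcgr they were RBM25, ADAMTS14, SYNCRIP, WASF3 and HEXIM2, with r of 0.90, 0.86, 0.84, 0.83 and 0.81. RBM25 and SYNCRIP are RNA-binding proteins and ADAMTS14 is a procollagen protease. None of these 10 genes passed with Fsh. The smallest adjusted p was that of ADAMTS14, at 5.38 ± 1.60 CPM with Fsh and 9.47 ± 2.83 CPM in controls (log2 fold change −0.81 ± 0.24, edgeR adjusted p = 0.108). These are the highest of many values of r over the same 12 libraries, which share their depth and tissue makeup, and are a description.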

How the data were processed

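RNA of adult zebrafish testis was sequenced in 12 libraries, 6 with Fsh and trilostane and 6 with trilostane alone, grouped by their titles. The authors deposited raw counts per Ensembl gene ID. Per the submitters' processing notes, CASAVA 1.8, STAR 2.3, HTSeq and the Zv9 build were used. Annotation release, strand setting and treatment of multiply mapped reads: not given in the sources used here. Symbols matched 21939 of 33737 IDs, and 1342 symbols were shared by several IDs.

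From the counts, edgeR 4.0.16 in R 4.3.3 (TMM, filterByExpr, quasi-likelihood test, Benjamini-Hochberg at 0.05) tested 19317 genes and called 315. DESeq2 1.42.0 and limma 3.58.1 (voom) were alternatives. Receptor ratios, pairs and correlations were tested by exact permutation (Python 3.11.15, scipy 1.17.1). The fits were tested on simulated data.

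The receptors and gene lists were chosen with earlier results of these data known. Of 413 list entries 235 matched, giving 255 IDs. Named were both receptors, from each signalling list the called genes or else the gene of smallest p, preset Sertoli and Leydig genes (amh, gsdf, igf3, inha, insl3, STAR) with the 3 of each list farthest from 0 in r to each receptor, and the 5 genes most like each receptor. Genes outside this rule are marked, and 1 gene that the rule names is not reported here. A moderated limma fit of the receptor to gene ratios over all genes was tried after seeing the data. It called part of the Sertoli and Leydig pairs and was set aside, since every ratio holds the same receptor's error, which makes its p-values too small; the permutation p adjusted over all genes took its place.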

Additional observations from a re-analysis of the deposited data

Results flagged for a closer look

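The 6 libraries of each group were examined for the receptors, their ratio and the other named genes, 70 sets in all, and 4 had 1 library far from the other 5, where chance gives about 1 in 20. The level of amh in Fsh library 1 was 37.9 CPM, and the next lowest of that group was 113.6 CPM; HSD17B3 in Fsh library 2 was 4.51 CPM, and the next highest was 2.58 CPM. In control library 6, HSD11B2 was 50.7 CPM with the next highest at 18.7 CPM, and fdx1, a ferredoxin of steroid synthesis, was 15.6 CPM with the next highest at 9.62 CPM. Neither receptor had such a library in either group.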

How the results depend on the processing

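The fshr change kept its direction and did not pass under all 21 alternatives (log2 −0.18 to −0.03, edgeR, DESeq2 or limma adjusted p 0.546 to 0.944), nor did the lhcgr change (−0.52 to −0.22, adjusted p 0.356 to 0.749) or, under 14, the ratio of the receptors (−0.35 to −0.07, exact permutation p 0.303 to 0.829). Genes called over the whole table numbered 315, against 1087 with DESeq2 and 95 (without Fsh library 2) to 758 (without Fsh library 5) when a library was left out. Signalling genes called were 2 with DESeq2, 1 with the leukocyte covariate and 0 to 2 when a library was left out. The pairs whose ratio passed numbered 18 to 35 when a library was left out, and the pairs whose r passed 0 to 1. The r of fshr with lhcgr was −0.0047 with a pseudocount of 0.1 CPM and −0.17 to 0.19 when a library was left out, so it has no settled sign. Whether same-numbered libraries share fish is not known. The correlation of their deviations was 0.0366 to 0.251, above 0 in all 6 pairs and over 0.1 in 4 of 6. Of 6 Fsh libraries, 2 matched their own number best. These values cannot exclude pairing. The main tests did not treat the libraries as pairs and would ignore a pairing if there was one. With the replicate block, edgeR called 381 genes over the whole table, and 5 Sertoli and 3 Leydig genes rose. Of the signalling genes, 1 was called with the block (ghrb, a growth hormone receptor, 0.91, edgeR adjusted p = 0.0277). No pair's ratio passed with it (the smallest exact p of 6 differences is 0.0312), and r of the receptors was −0.077. Sertoli and Leydig calls by setting were added after seeing the data. For lhcgr, at 33 to 86 reads a library, the coefficient of variation was 35.1%, where counting alone gives 14.1%.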
